A study of Mus musculus with 4 samples.

Results

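The mouse zinc finger genes numbered Zfp900 to Zfp999 were examined in liver mRNA of DBA/2J and C57BL/6J mice. They were chosen by symbol, with earlier results of these data known: 64 of the 50584 gene symbols in the count files matched. Livers of 14-week-old male mice kept on chow were compared, 2 DBA/2J and 2 C57BL/6J, both inbred strains labelled as wild type (WT); no group carried an introduced allele or a treatment, and the labels do not speak of pooling. Total counts per library ranged from 48096706 to 52520737, and beyond the design text's mention of 2 mice per strain nothing states how far the libraries are independent, so p-values measure the spread between these libraries alone.

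C2H2 zinc finger proteins read DNA through repeated fingers, each held together by a zinc ion bound to a pair of cysteines and a pair of histidines. In many of the mouse proteins a KRAB domain precedes the fingers and recruits the co-repressor TRIM28, which brings in SETDB1 to methylate histone H3 and silence nearby DNA, retrotransposons among the targets. The genes multiply by tandem duplication and stand in clusters of close copies that differ between mouse strains and between species. In the coding sequences of GENCODE release M21, 63 of the 64 genes gave a protein, with a median of 11 fingers (range 0 to 21) by the C2H2 spacing pattern, and 57 had at least 5.

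The 64 genes lay on 12 chromosomes, and 43 stood in 5 clusters, defined as 3 or more of them with neighbouring starts at most 1 Mb apart. The largest cluster by number held 16 genes over 2.34 Mb of chromosome 4 (145510759 to 147848366, GRCm38, as all coordinates here). Clusters of 10 genes each covered 2.71 Mb of chromosome 2 (175372436 to 178078476) and 1.30 Mb of chromosome 17 (21567046 to 22867134). Smaller clusters held 4 genes on chromosome 7 (42579783 to 43192109) and 3 on chromosome 8 (69209038 to 69749970). The other 21 genes stood outside clusters.

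Of the 64 genes, 46 passed the low-count filter and were tested, and 9 differed between the strains: 8 were lower in DBA/2J (Zfp970, Zfp984, Zfp975, Zfp982, Zfp976, Zfp950, Zfp944 and Zfp943) and 1, Zfp949, was higher. Calls required an adjusted p below 0.05 (quasi-likelihood F test of edgeR, with Benjamini-Hochberg adjustment across the 15647 tested genes). The assembly used for counting was made from C57BL/6J, so fewer transcripts in DBA/2J and DBA/2J reads lost where its sequence differs or is missing cannot be told apart in any gene called lower. The effect of this assembly on genes with higher counts in DBA/2J was not measured either. The share called, 19.6%, was close to the 18.2% among all tested genes. By direction, 17.4% were called lower against 8.87% of all tested genes, and 2.17% higher against 9.29%; these differences in share were not tested. A difference of at least 2-fold was called in 5 of the 46, 4 of them lower, against 7.74% of all tested genes. The median log2 difference (DBA/2J over C57BL/6J throughout) was -0.12, against 0.01 over all tested genes. Libraries of the strains did not overlap in 33 of the 46 genes, a share of 71.7% against 63.8% of all tested genes. DBA/2J was the lower strain in 21 of these 33, and in 4884 of the 9975 such genes over all tested genes. The other 270 tested genes with a numbered Zfp symbol had 20 higher and 15 lower calls and a median of 0.09.

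**Figure D1:**
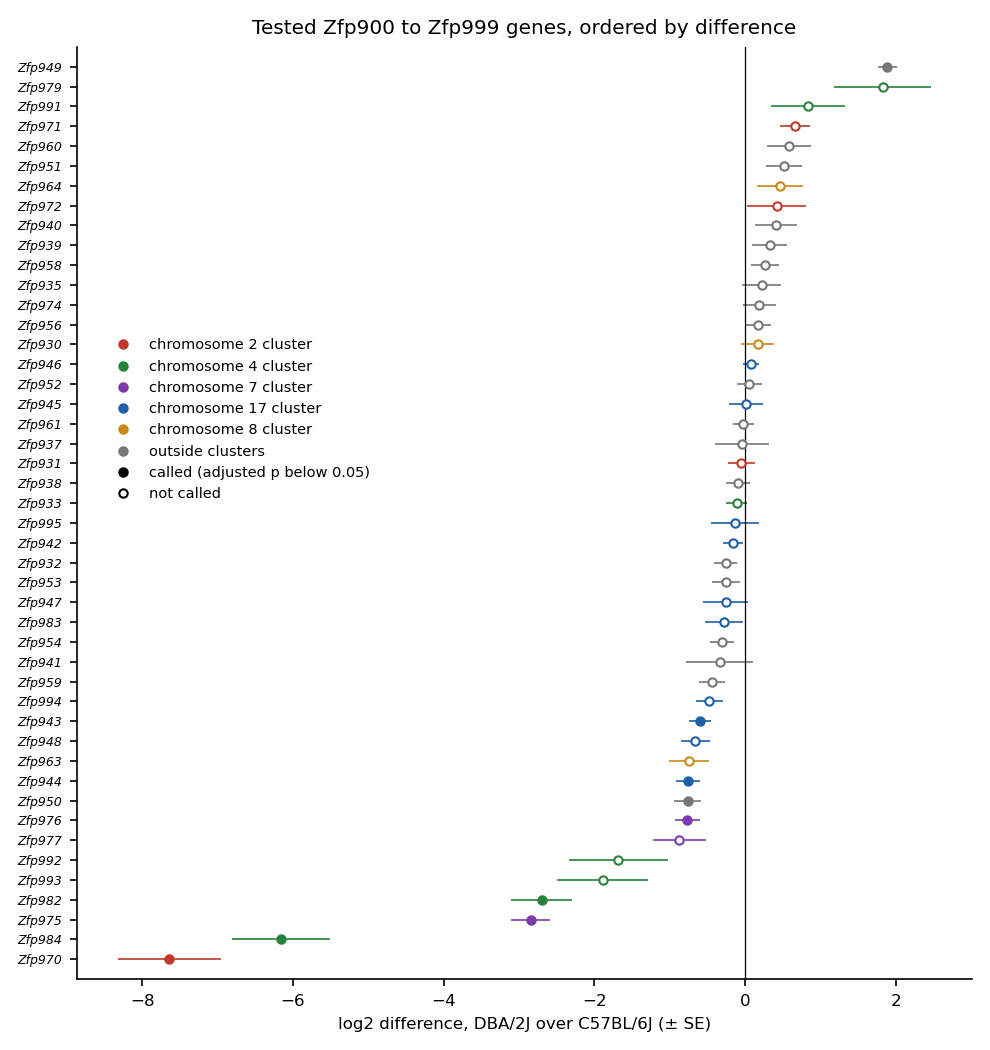
Log2 difference between the strains (x axis, DBA/2J over C57BL/6J) with its SE for the 46 tested genes (y axis), ordered by difference and coloured by cluster; filled points were called at an adjusted p below 0.05. The differences run from -7.64 (Zfp970) to 1.89 (Zfp949), and 8 of the 9 filled points lie below 0.

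These are rare transcripts in bulk liver. Levels are given as CPM (counts scaled to library size after TMM adjustment), and for comparison between genes as CPM per kb of annotated exon. The tested genes had a median mean level of 3.64 CPM (range 0.242 to 21.3) against 10.3 CPM for all tested genes. Per length, the median over the 4 libraries was 1.06 CPM per kb. The highest mean in DBA/2J was that of Zfp949, 6.64 CPM per kb, and in C57BL/6J that of Zfp970, 13.6 CPM per kb. Zfp970 stood at 0.0673 CPM per kb in DBA/2J. The summed level of all 64 genes was 200.2 and 216 CPM in DBA/2J replicates 1 and 2, below the 275 and 234 CPM in C57BL/6J replicates 1 and 2. Leaving out Zfp970 and Zfp949, chosen after their values were seen, the sums were 173 and 189 CPM against 224 and 211 CPM. In bulk tissue, fewer cells of a type and less RNA per cell cannot be told apart.

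Markers of the labelled tissue were present in every library: 5 hepatocyte genes summed to 78692 to 93936 CPM, and none of them was called. Summed levels of the lists for Kupffer cells (66.4 to 78.1 CPM), lymphocytes (0.661 to 2.58 CPM), cholangiocytes (8.45 to 14.1 CPM) and neutrophils (0.253 to 5.11 CPM) overlapped between strains, with 0 genes called. C57BL/6J replicate 1 stood apart in neutrophil markers, at 5.11 CPM against at most 0.477 CPM in the other libraries, and it also had the highest sums for hepatocytes, Kupffer cells, lymphocytes and cholangiocytes. Of the genes called lower in DBA/2J, Zfp970, Zfp950, Zfp944, Zfp975 and Zfp976 were highest in the same library. Zfp984, Zfp982 and Zfp943 were highest in the other C57BL/6J library. Some of these orders rest on small gaps between C57BL/6J replicates 1 and 2, such as 7.32 and 7.21 CPM for Zfp976 and 14.8 and 15.0 CPM for Zfp943. Of 3 sinusoidal endothelial genes 1 was called higher and 1 lower, with sums of 65.1 to 83.2 CPM that overlapped. The summed level of the 3 stellate cell markers was higher in DBA/2J, at 164 and 208 CPM against 123 and 85.2 CPM in C57BL/6J. Of these 3 genes 1 was called, higher, and the sum does not show that each of them differed. No listed marker was at 0 in all libraries. Their part in the results was not tested.

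**Figure D2:**
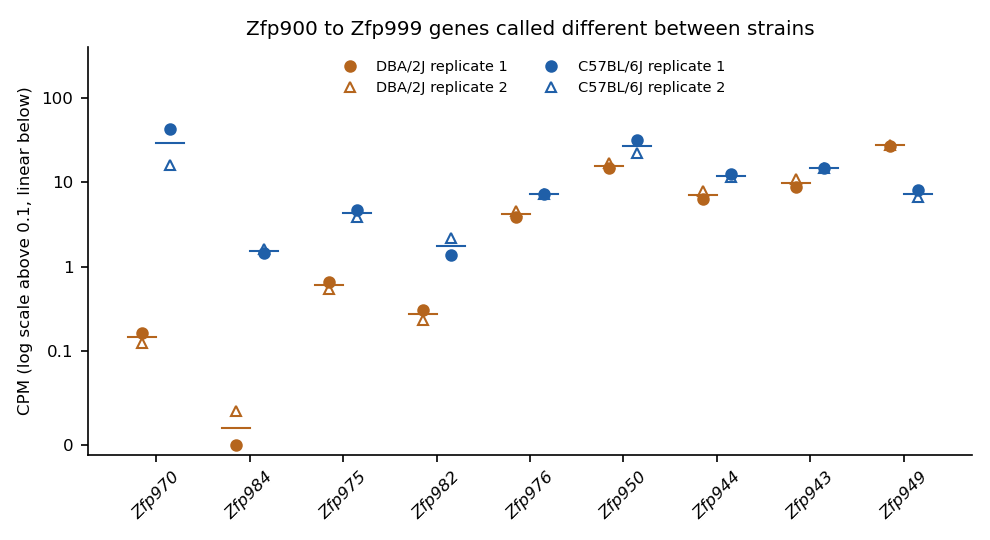
CPM in each library (y axis, logarithmic above 0.1 and linear below) for the 9 called genes (x axis), with circles for replicate 1, open triangles for replicate 2 and bars for strain means. Zfp970 and Zfp984 stood at most at 0.166 and 0.0361 CPM in DBA/2J, while the 4 genes from Zfp976 to Zfp943 were between 3.90 and 31.4 CPM in all libraries.

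Zfp949 was the gene called higher in DBA/2J. It lies alone on chromosome 9 (88548020 to 88571061, forward strand) and encodes 11 fingers in 603 residues. Its counts were 1306 and 1523 in the DBA/2J libraries (replicates 1 and 2, the order used throughout) and 391 and 334 in the C57BL/6J libraries. All DBA/2J values lay above all C57BL/6J values. The DBA/2J mean was 27.3 CPM ± 0.325 (SD, n = 2) and the C57BL/6J mean 7.35 CPM ± 0.940 (SD, n = 2), a 3.71-fold difference (log2 1.89 ± 0.13 SE, edgeR adjusted p = 0.00105). The call held with any library left out, at edgeR adjusted p values of at most 0.0341. No window of 100 bases in its transcripts was found in a gene elsewhere (0%). Its promoter, the 250 bases before the RefSeq start (GRCm38.p6, chr9:88547770-88548019, forward strand), is shown because of this difference. It held neither CCAAT nor CCGGAAG on either strand, motifs described further on. CCAAT is in capitals in the other promoters. All promoters shown here and below are sequence of the C57BL/6J-derived assembly, and no DBA/2J sequence was compared.
Zfp949: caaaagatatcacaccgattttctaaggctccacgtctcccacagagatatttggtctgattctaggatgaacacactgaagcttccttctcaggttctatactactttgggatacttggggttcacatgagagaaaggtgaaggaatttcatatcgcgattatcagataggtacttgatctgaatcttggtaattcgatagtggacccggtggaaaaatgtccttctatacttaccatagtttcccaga

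In the chromosome 2 cluster, Zfp970 was lower in DBA/2J and its tested neighbours within the numbered genes were not called. Zfp970 (177464733 to 177478129, forward strand, 14 fingers) was counted 8 and 7 times in the DBA/2J libraries and 2093 and 800 times in the C57BL/6J libraries. DBA/2J levels were 0.166 and 0.126 CPM, and the C57BL/6J libraries stood apart from each other, at 42.9 and 16 CPM. The means were 0.146 CPM ± 0.0278 (SD, n = 2) and 29.5 CPM ± 19 (SD, n = 2), with a log2 difference of -7.64 ± 0.68 and an edgeR adjusted p of 0.00254. Leaving out DBA/2J replicate 1 or 2 ended the call, at edgeR adjusted p values of 0.0515 and 0.0556 and log2 values of -7.85 and -7.46. Leaving out C57BL/6J replicate 1 or 2 instead kept the call, at log2 values of -6.77 and -8.19.

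Genes beside Zfp970 that carry no Zfp number also had few or no counts in DBA/2J. Gm14403, a protein-coding gene starting 20086 bases after the end of Zfp970, was counted 2 and 1 times in DBA/2J libraries and 485 and 612 times in C57BL/6J libraries. That is a 384-fold ratio of counts (95% interval for counting error alone, 131 to 1864), with an edgeR adjusted p of 1.38e-04. Gm14418, protein-coding and 66413 bases before Zfp970, had 0 and 0 counts against 10 and 19, at least 10.1-fold lower against a floor of 3 counts over the strain's libraries. Its call (edgeR adjusted p = 0.0299) was lost without either DBA/2J library (0.16 and 0.156, without replicates 1 and 2) and without the low-count filter (0.0814), and without C57BL/6J replicate 2 the gene was not tested, whereas that of Gm14403 held with any library left out (at most 0.0145), with a log2 value of -8.46 and of -9.10 without DBA/2J replicate 1. The 3 genes span 123 kb. The other 7 tested genes without a Zfp number in the cluster span were not called.

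Further along, Zfp971 (178023284 to 178034022) had 159 and 179 counts in DBA/2J and 99 and 104 in C57BL/6J. The strains did not overlap, but the log2 difference of 0.67 ± 0.20 did not pass the test (edgeR adjusted p = 0.0738). Zfp972, with 22, 23, 19 and 13 counts in the order DBA/2J replicates 1 and 2 and C57BL/6J replicates 1 and 2, had a log2 value of 0.42 (edgeR adjusted p = 0.496). Zfp931, with 178, 195, 184 and 184 counts in the same order, had -0.05 (edgeR adjusted p = 0.87). Transcript windows found in genes elsewhere made up 17.4% in Zfp970, 22.1% in Zfp971, 32.0% in Zfp972 and 6.91% in Zfp931. The coding sequences of Zfp970 and Zfp971 were identical in 91.6% of 1410 aligned bases. Their promoters were closer still, with 235 of 241 aligned bases identical and 18 bases opposite gaps, and are shown because the genes' strain values differ in direction. Capitals mark CCAAT or its complement ATTGG, present 2 times in each.
Zfp970: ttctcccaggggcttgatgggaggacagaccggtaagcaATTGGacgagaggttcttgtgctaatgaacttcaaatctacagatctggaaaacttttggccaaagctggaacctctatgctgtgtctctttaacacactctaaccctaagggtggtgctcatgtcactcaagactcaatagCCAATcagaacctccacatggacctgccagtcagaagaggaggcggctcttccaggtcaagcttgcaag
Zfp971: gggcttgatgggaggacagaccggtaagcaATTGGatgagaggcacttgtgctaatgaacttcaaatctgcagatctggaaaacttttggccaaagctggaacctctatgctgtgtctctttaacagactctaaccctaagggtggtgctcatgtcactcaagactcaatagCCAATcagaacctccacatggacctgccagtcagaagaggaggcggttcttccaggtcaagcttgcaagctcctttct
These windows are chr2:177464492-177464741 and chr2:178023034-178023283, both on the forward strand.

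**Figure D3:**
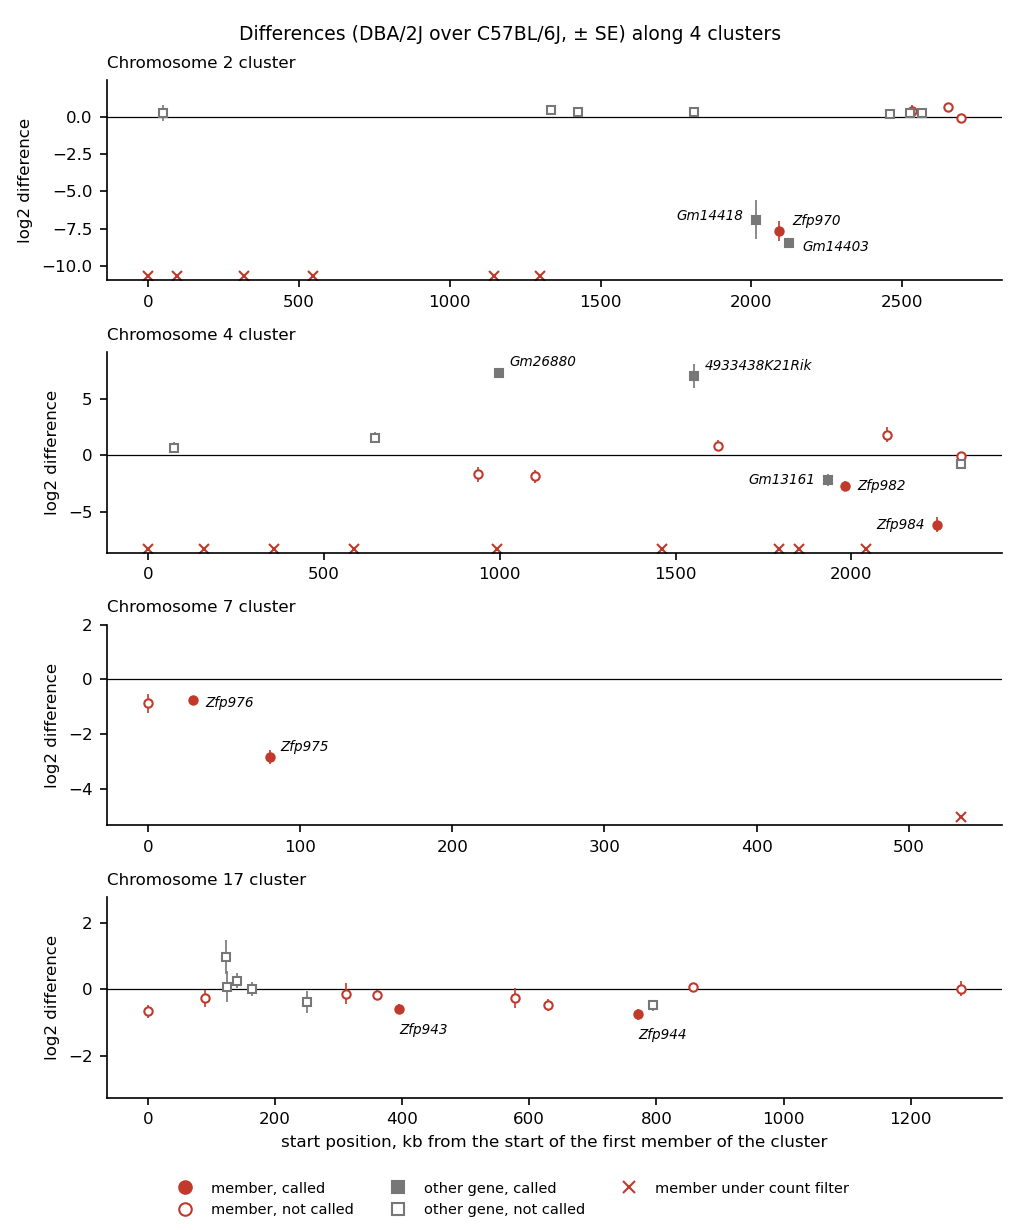
Log2 difference (y axis, DBA/2J over C57BL/6J, with SE) by start position (x axis, kb from the first gene of the cluster) in 4 clusters, for numbered genes (red circles) and other genes (grey squares); filled symbols were called and crosses mark genes under the count filter. On chromosome 2 the 3 filled symbols stand next to each other, at -6.90, -7.64 and -8.46, while on chromosome 4 filled symbols lie on both sides of 0.

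The chromosome 4 cluster had 7 tested genes, of which Zfp984 and Zfp982 were called lower in DBA/2J and 0 higher. The strains did not overlap in any of the 7, where 63.8% of all tested genes did not overlap. In 5 of the 7 DBA/2J was lower, against 4884 of all 15647 tested genes not overlapping in that direction. Mouse stem cells lacking this cluster are known to transcribe more of some retrotransposon families. Zfp984 (147753974 to 147809788, reverse strand, 11 fingers) was counted 0 and 2 times in DBA/2J libraries and 72 and 81 times in C57BL/6J libraries, an 80.3-fold ratio of counts (95% interval 21.9 to 669, edgeR adjusted p = 0.00223). Its exons overlap those of Gm20707, and the file headers carry no option to count reads that fall on both. The fitted log2 difference was -6.16 ± 0.65, and its size turned on single libraries. Leaving out DBA/2J replicate 1 ended the call at a log2 value of -5.35 (edgeR adjusted p = 0.0543), and leaving out replicate 2 kept it at -9.25 (0.0475). Zfp933 lies 13.2 kb beyond Zfp984 and had 337, 396, 382 and 370 counts in the order DBA/2J replicates 1 and 2 and C57BL/6J replicates 1 and 2 (log2 -0.11, edgeR adjusted p = 0.616). The promoter of Zfp984 (chr4:147809789-147810038, reverse strand) is shown as that of a gene with almost no counts in DBA/2J, with ATTGG in capitals at 2 places.
Zfp984: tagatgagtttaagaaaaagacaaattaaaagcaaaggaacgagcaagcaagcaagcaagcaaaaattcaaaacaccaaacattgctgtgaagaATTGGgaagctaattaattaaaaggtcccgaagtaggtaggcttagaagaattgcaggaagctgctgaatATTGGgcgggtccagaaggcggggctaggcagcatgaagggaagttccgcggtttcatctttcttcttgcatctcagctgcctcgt

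Zfp982 (147492417 to 147513486, forward strand, 7 fingers) had 15 and 13 counts in DBA/2J and 67 and 108 in C57BL/6J. Both DBA/2J libraries lay below both C57BL/6J libraries, with means of 0.273 CPM ± 0.0537 (SD, n = 2) and 1.77 CPM ± 0.558 (SD, n = 2). The log2 difference was -2.70 ± 0.41 (edgeR adjusted p = 0.0117), and the call was lost without DBA/2J replicate 1 (0.122) and replicate 2 (0.132). The coding sequences of Zfp982 and Zfp984 were identical in 88.6% of 1104 aligned bases, and 3.06% and 27.5% of their transcript windows occurred in genes elsewhere.

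Of the other 4 uncalled genes of this cluster, 3 passed the threshold when 1 of the C57BL/6J libraries was left out, and had a smaller difference, not called, when the other was. Zfp979 had 70 and 87 counts against 5 and 37 (DBA/2J first; log2 1.83 ± 0.65, edgeR adjusted p = 0.107), and was called higher without C57BL/6J replicate 2 (3.85, edgeR adjusted p = 0.00176) but stood at 1.02 without replicate 1 (0.074). Zfp992 had 41 and 26 against 46 and 162 (-1.68 ± 0.66, edgeR adjusted p = 0.132), and was called lower without C57BL/6J replicate 1 (-2.32, edgeR adjusted p = 0.00251) but stood at -0.54 without replicate 2 (0.405). Zfp993 had 5 and 7 against 13 and 30 (-1.89 ± 0.61, edgeR adjusted p = 0.0863), and was likewise called lower without C57BL/6J replicate 1 (-2.36, 0.0257) but stood at -1.19 without replicate 2 (0.242). Zfp991 had 17 and 15 against 11 and 6 (0.84 ± 0.49, edgeR adjusted p = 0.283). Zfp991, Zfp992 and Zfp993 are close copies, with 99.5% to 99.8% of aligned coding bases identical, and 28.6% to 71.9% of their transcript windows occurred elsewhere.

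Of 6 other tested genes in the chromosome 4 span, 2 were called higher and 1 lower. Gm26880, annotated as long intergenic non-coding RNA, had 721 and 640 counts against 4 and 4 (DBA/2J first, log2 7.31 ± 0.30, edgeR adjusted p = 2.63e-04). Its call held with any library left out. It lies within the span of Zfp981 on the opposite strand, with no exon bases shared. Without a stated strand setting, reads from either strand there cannot be told apart. 4933438K21Rik, annotated as antisense, had 16 and 17 against 0 and 0, at least 10.5-fold higher (edgeR adjusted p = 0.0181); without a stated strand setting its reads cannot be told from those of a gene opposite it. The processed pseudogene Gm13161 had 3 and 5 against 14 and 22 (edgeR adjusted p = 0.0443). For both, the call was lost when either DBA/2J replicate was left out and without the low-count filter (edgeR adjusted p up to 0.152 and 0.278). That of Gm13161 was also lost without C57BL/6J replicate 2 (0.0957), with the replicate block (0.0554) and in DESeq2 (0.122).

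On chromosome 7 the 3 tested genes of the cluster were neighbours, and in all 3 both DBA/2J libraries lay below both C57BL/6J libraries. Over all 15647 tested genes, 4884 had this order, and 63.8% did not overlap when both directions are counted. Zfp975 (42660105 to 42692742, reverse strand, 14 fingers) had 32 and 30 counts in DBA/2J and 230 and 196 in C57BL/6J, with means of 0.603 CPM ± 0.0855 (SD, n = 2) and 4.32 CPM ± 0.560 (SD, n = 2). It was 7.18-fold lower (log2 -2.84 ± 0.26, edgeR adjusted p = 0.00266), and the call was lost without DBA/2J replicate 1 (0.0551) and replicate 2 (0.0609). Zfp976 (42609526 to 42642588, reverse strand, 18 fingers) had 188 and 256 against 357 and 360 and was 1.70-fold lower (log2 -0.77 ± 0.17, edgeR adjusted p = 0.0312). That call was lost without DBA/2J replicate 1 (0.262) or replicate 2 (0.166), with library totals alone as scaling (0.0517), without the low-count filter (0.0517) and with the replicate block (0.0507). Zfp977 had 20 and 17 against 33 and 32 (-0.87 ± 0.35, edgeR adjusted p = 0.141). The 4th gene, Zfp936, had counts of 1, 0, 0 and 1 and was not tested.

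Zfp975 and Zfp976 are close copies: 95.5% of 1572 aligned coding bases were identical, yet 10.9% and 6.85% of their transcript windows occurred in genes elsewhere. Their promoters shared 175 of 189 aligned bases, with 122 bases opposite gaps, and are shown because the genes differed between strains by unlike amounts. Each held CCAAT at 1 place (capitals).
Zfp975: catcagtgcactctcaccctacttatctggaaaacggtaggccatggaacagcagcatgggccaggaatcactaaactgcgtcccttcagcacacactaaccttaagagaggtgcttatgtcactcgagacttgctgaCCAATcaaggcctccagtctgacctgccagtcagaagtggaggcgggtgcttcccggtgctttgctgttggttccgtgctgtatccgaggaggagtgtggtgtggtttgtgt
Zfp976: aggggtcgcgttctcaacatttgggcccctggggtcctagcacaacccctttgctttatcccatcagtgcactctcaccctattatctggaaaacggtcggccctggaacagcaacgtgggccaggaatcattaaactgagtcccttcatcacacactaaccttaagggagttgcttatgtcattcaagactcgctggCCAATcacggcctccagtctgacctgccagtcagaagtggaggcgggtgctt
The windows are chr7:42692719-42692968 and chr7:42642605-42642854, both on the reverse strand.

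All 10 genes of the chromosome 17 cluster were tested, and differences there were small: 2 were called lower, 0 higher, and the median log2 difference was -0.26. Zfp944 (22337989 to 22361400, reverse strand) had 305 and 440 counts in DBA/2J and 607 and 579 in C57BL/6J, with means of 7.14 CPM ± 1.15 (SD, n = 2) and 12 CPM ± 0.603 (SD, n = 2). It was 1.68-fold lower (log2 -0.75 ± 0.16, edgeR adjusted p = 0.0292). Zfp943 (21962552 to 22071168, forward strand) had 426 and 600 against 722 and 748 and was 1.51-fold lower (log2 -0.60 ± 0.14, edgeR adjusted p = 0.0392). Both genes encode 11 fingers. The calls were lost without DBA/2J replicate 1 (0.236 for Zfp944 and 0.276 for Zfp943), without DBA/2J replicate 2 (0.126 and 0.139) and without the low-count filter (0.0621 and 0.082), and that of Zfp943 also with library totals alone (0.074).

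Both called genes of this cluster start close to a gene on the opposite strand. Zfp942 lies 88 bases before the start of Zfp943 and is read away from it. It had 540, 729, 665 and 679 counts in the order DBA/2J replicates 1 and 2 and C57BL/6J replicates 1 and 2 (log2 -0.16 ± 0.13, edgeR adjusted p = 0.422). Zfp758, outside the numbered set and named after its value was seen, starts 53 bases after Zfp944 and had 200, 245, 300 and 293 (log2 -0.49 ± 0.16, edgeR adjusted p = 0.0898). The difference between the genes of a pair was not tested.

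Among the other chromosome 17 cluster genes, Zfp948 was nearest to the threshold, with 145 and 206 counts against 272 and 253 (log2 -0.66 ± 0.19, edgeR adjusted p = 0.0695; called without C57BL/6J replicate 2, 0.0336). Zfp994 had a log2 value of -0.47 (edgeR adjusted p = 0.117), Zfp983 of -0.27, Zfp947 of -0.26 and Zfp995 of -0.14. Zfp946 and Zfp945 lay at 0.08 and 0.01. Neither these nor the 6 other tested genes in the span were called. Transcript windows shared with genes elsewhere were few here, at most 5.39% in any of the 10.

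Outside clusters 19 of 21 genes were tested, and besides Zfp949 the call was Zfp950 on chromosome 19 (61053840 to 61140840, reverse strand, 17 fingers). It had 711 and 933 counts in DBA/2J and 1531 and 1108 in C57BL/6J, with means of 15.8 CPM ± 1.5 (SD, n = 2) and 26.8 CPM ± 6.51 (SD, n = 2). It was 1.70-fold lower (log2 -0.76 ± 0.18, edgeR adjusted p = 0.0419). The call was lost without DBA/2J replicate 1 (0.278) or replicate 2 (0.196), with library totals alone (0.0549) and without the low-count filter (0.0998).

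The chromosome 8 cluster had no call (0 of 3), with log2 values of 0.17 for Zfp930, 0.47 for Zfp964 and -0.75 for Zfp963 (edgeR adjusted p = 0.109; called without C57BL/6J replicate 1, 0.0299). By unadjusted p below 0.05, 18 of the 46 tested genes passed, a share of 39.1% against 35.4% of all tested genes. Of the 37 uncalled genes, 27 had a log2 difference within 0.5 of 0. The 5 with the highest level per length were Zfp946, Zfp983, Zfp959, Zfp954 and Zfp938, at 3.97, 3.03, 2.79, 2.55 and 2.49 CPM per kb over the 4 libraries. Zfp959 had a log2 difference of -0.44 (edgeR adjusted p = 0.131; called without C57BL/6J replicate 2, 0.037), Zfp954 of -0.30 and Zfp938 of -0.09. Zfp932, whose product is known to repress endogenous retroviruses, had 255, 298, 299 and 329 counts in the order DBA/2J replicates 1 and 2 and C57BL/6J replicates 1 and 2 (log2 -0.25 ± 0.15, edgeR adjusted p = 0.287); it was named after its value was seen.

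The 18 untested genes had at most 14 counts in any library, and 10 of them had 0 counts in all 4. At 0, the floor of 3 counts corresponds to 0.0571 to 0.0624 CPM of the library total. The 10 were Zfp965 to Zfp969 on chromosome 2 and Zfp986 to Zfp990 on chromosome 4. Much of their sequence is not theirs alone: in 9 of these 10, over 40% of the 100-base transcript windows occurred exactly in a gene elsewhere, and in Zfp967 and Zfp969 all did (100%). Zfp990 was the exception at 3.6%. The file headers carry no option to count reads that match several places. Most windows of Zfp988 (44.6% shared), Zfp989 (42.5%) and Zfp990 were their own. The cause of the 0 counts was not tested in any of these genes. Over all untested genes the median share of such windows was 53%, against 0.779% over tested genes, 3 of which exceeded 40%.

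**Figure D4:**
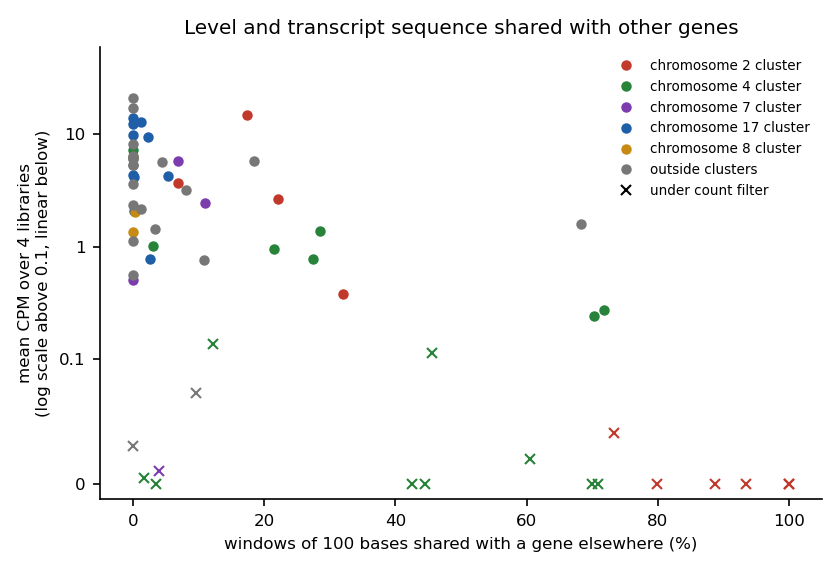
Mean CPM over the 4 libraries (y axis, logarithmic above 0.1 and linear below) against the share of 100-base transcript windows found in a gene elsewhere (x axis, %) for the 64 genes, coloured by cluster, with crosses for genes under the count filter. Genes with over 40% of windows shared lie under 2 CPM, and the 5 with the highest shares, 79.9% to 100%, lie at 0.

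Promoters of the numbered genes differed from all promoters in the share holding some motifs, and the choice by symbol did not use these sequences. RefSeq windows were found for 54 of the 64 genes (62 windows of 250 bases before a start). CCAAT or its complement occurred in 77.4% of these windows, against 33.8% of all 32851 promoter windows and 41.6% of 308 windows of other numbered Zfp genes. In the chromosome 17 cluster it was absent from Zfp942 to Zfp946, Zfp948 and Zfp995 and present in Zfp947, Zfp983 and Zfp994. CCGGAAG, the core bound by ETS factors, occurred in 24.2%, against 6.91% and 16.2%. TATAAA occurred in 0 of the 62 windows, against 12.4% of all windows and 8.12% of other Zfp windows, and GCATGCGC in 0, against 2.26% and 5.52%. GGGCGG occurred in 30.6%, against 32.7% and 43.5%. ACTACA occurred in 9.68%, near the 8.92% of all windows and below the 23.1% of other Zfp windows. These 6 motifs were searched on both strands, and none of them contains another. Some genes have several windows, and these can overlap. By gene, CCAAT occurred in 41 and CCGGAAG in 11 of the 54. Windows of the same gene, or of copies in a cluster that share ancestry, are not independent, and a match is a description of letters.

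Transcripts of the KRAB co-repressor machinery were called at a share close to that of all genes, in both directions. Of 31 listed genes 30 were tested, 2 were called higher and 2 lower, a share of 13.3% against 18.2% of all tested genes, and the median log2 difference was 0.01. Trim28, the scaffold itself, had 4065, 4638, 4077 and 4137 counts in the order DBA/2J replicates 1 and 2 and C57BL/6J replicates 1 and 2 (log2 0.01 ± 0.07, edgeR adjusted p = 0.913). Called lower were the deacetylase gene Hdac1 (log2 -0.67 ± 0.12, edgeR adjusted p = 0.0169) and Morc2a, an ATPase that works with the HUSH silencing complex (-0.44 ± 0.10, 0.0324). Called higher were Mta1, a subunit of the NuRD complex (0.40 ± 0.09, edgeR adjusted p = 0.0329), and 2810474O19Rik, also known as Resf1 and a partner of SETDB1 (0.58 ± 0.13, 0.0335). Without either DBA/2J library 0 of the 30 were called in edgeR, with adjusted p values of these 4 genes up to 0.283. Without the low-count filter Hdac1 alone remained called, and Morc2a was also lost with library totals alone (0.0679) and with the replicate block (0.0544).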

How the data were processed

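Poly(A)-selected liver RNA of 4 mice was sequenced as single-end reads of 100 bases, per the labels' protocols. The deposited values are raw read counts for each gene symbol, with a file for each library. Per the file headers, the authors made them with featureCounts 2.0.1 on exons of Ensembl release 88 (GRCm38), with its paired-read option although the labels state single-end reads; the submitters' processing notes name STAR 2.4.0g1 and featureCounts 1.5.2. The GRCm38 assembly was made from C57BL/6J mice; loss of DBA/2J reads there was not measured. The headers carry no option for strand, multiply aligned reads or reads on several genes. Of the 64 genes, 8 have exons overlapping another symbol.

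Groups and replicate numbers were taken from sample titles. Genes were kept by filterByExpr (minimum count 10) and tested with edgeR 4.0.16 in R 4.3.3 (TMM scaling, quasi-likelihood F test with legacy=FALSE, strain as sole term), on all genes; SEs were derived from the F statistic. The fit was run on simulated data in which all genes and both strains had the same spread between libraries. That setting is simpler than these data, so the run cannot vouch for the calls. Alternatives were other scalings, DESeq2 1.42.0, the older quasi-likelihood form, no filter, each library left out and a replicate block. Floors and count-ratio intervals (exact, 95%) cover counting error only. Transcript windows of 100 bases and coding sequences came from GENCODE release M21 (GRCm38), matched by symbol; genes at the same place were not counted as elsewhere, and introns and unannotated copies were not searched. Fingers were counted as C-2-C-12-H-(3 to 5)-H in translated coding sequences. Coding and promoter pairs were aligned globally with Biopython 1.88.

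Named were all called genes, the other tested genes of clusters with a call, the 5 uncalled genes with the highest level per length, Trim28 and called co-repressor genes, and called neighbours in those clusters; the chromosome 8 cluster genes were added after their values were seen, and other names are marked or serve a count. The members and lists were chosen with earlier results of these data known.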

Additional observations from a re-analysis of the deposited data

How the results depend on the processing

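The 9 called Zfp genes kept their direction under all 10 alternatives run, and Zfp949 its call; no called result reversed, while 8 uncalled Zfp genes changed sign under some alternative. With DESeq2 size factors, the DESeq2 Wald test or the older quasi-likelihood form, 1 gene was called higher and 8 lower, as in the main test. Leaving out 1 library at a time gave 1 to 2 higher and 0 to 11 lower Zfp genes, the 0 without DBA/2J replicate 1 and the 11 without C57BL/6J replicate 1. Over all tested genes the same gave 186 to 2450 higher and 106 to 2455 lower. Other numbered Zfp genes had 0 to 42 and 1 to 26, and co-repressor genes 0 to 5 and 0 to 3. Without the low-count filter, 4 Zfp genes were lower, all genes had 809 higher and 707 lower, other Zfp genes 6 and 8, and co-repressor genes 0 and 1. With library totals alone, 5 Zfp genes were lower, co-repressor genes had 5 higher and 1 lower, and all genes 1925 higher and 1026 lower against 1454 and 1388. The DESeq2 Wald test called 4 co-repressor genes higher. Nothing states what libraries of equal replicate number share. The correlation of replicate differences between strains was 0.017 over all tested genes, which cannot settle this for single genes. With the replicate block, 7 Zfp genes were lower, other Zfp genes had 12 higher and 9 lower, and 1 co-repressor gene was lower. Among Zfp genes with under 10% of windows shared, a restriction chosen after seeing the data, 1 was called higher and 5 lower. That set holds fewer tested genes, so its counts cannot be set directly against those of the main test. A restriction to sequence found once in the genome was not run, since no genome sequence was used. The median absolute log2 difference between replicates of the tested Zfp genes was 0.141 in DBA/2J and 0.222 in C57BL/6J. Over all tested genes it was 0.115 in DBA/2J and 0.173 in C57BL/6J. When a library is left out, the replicate spread of a gene comes from the pair of the other strain alone. The number of libraries, 2 per strain, limits the precision, and the cause of lost calls was not tested.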
